A study of Homo sapiens with 4 samples.

Results

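The EGR, NAB and IER genes are immediate-early genes and their regulators, followed here in cells whose topoisomerase II (TOP2) was inhibited with merbarone. The 9 genes were taken by their current NCBI symbols from the 23459 genes listed for each library: EGR1, EGR2, EGR3, EGR4, NAB1, NAB2, IER2, IER3 and IER5. All 9 were found, and 8 of them had more than 1 CPM (the usual count scaled by library size) in at least 2 libraries and were tested. EGR4 was not. The cells were hTERT RPE-1, an immortalized human line from the retinal pigment epithelium, labelled wild type. Every culture was starved of serum for 48 h in medium with 0.1% FBS, which arrests the cells in G0/G1, and then received 200 μM merbarone, a catalytic inhibitor of TOP2. There were 2 biological replicates after 4 h of merbarone and 2 after 8 h. No untreated cells are compared here. Every test sets 8 h against 4 h, and time in merbarone cannot be told apart from time in low-serum medium.

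Immediate-early genes are transcribed within minutes of a growth or stress signal, without new protein synthesis. The EGR proteins are zinc finger transcription factors that bind GC-rich sites. Growth signals reach their genes through the ERK kinases, which phosphorylate ETS factors such as ELK1 that sit with SRF on CArG boxes of the promoter. NAB1 and NAB2 are corepressors that bind the inhibitory domain of EGR1, EGR2 and EGR3, and NAB2 is itself induced by EGR1, which closes a negative feedback loop. IER2, IER3 and IER5 encode small proteins with no zinc finger. IER3 is known for its part in cell survival, and IER5 for binding PP2A and the heat shock factor HSF1.

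The libraries held between 8064450 and 10324697 counts, so that 1 CPM stood for 8.06 to 10.3 counts. Replicates were not copies of one library, since chi-square per degree of freedom was 2.67 for the pair at 4 h and 3.84 for that at 8 h. The defining genes of mature retinal pigment epithelium were nearly absent, with 2 to 7 counts per library for RPE65, 2 to 6 for BEST1, 0 to 2 for RLBP1 and none for TYR and DCT. The transcription factor genes MITF and OTX2 and the keratin genes KRT8 and KRT18 were present. Of the 6 markers tested, only KRT18 was lower (log2FC −0.51, edgeR adjusted p = 3.72e-05). The other 5 did not pass, with log2FC values of 0.029 for KRT8, 0.18 for MITF, 0.19 for OTX2, 0.39 for PMEL and 0.62 for SERPINF1. Their edgeR adjusted p values were 0.798, 0.117, 0.363, 0.588 and 0.135. The summed level of the 14 markers ranged from 790 to 839 CPM at 4 h and from 711 to 755 CPM at 8 h. Markers of other cells were low for EPCAM and KRT19 (no count), CDH1 (0 to 1 count) and PTPRC (3 to 8 counts), and of the 5 mesenchymal markers 4 were tested. Vimentin (VIM), with at least 88366 counts in each library, rose (log2FC 0.36, edgeR adjusted p = 0.000623) and the collagen gene COL1A1 fell (log2FC −0.80, edgeR adjusted p = 9.43e-06). CDH2 and THY1 did not pass (log2FC 0.089 and −0.011, edgeR adjusted p = 0.354 and 0.920), and COL1A2 had 0 to 2 counts. The list summed to 9407 and 9314 CPM at 4 h, against 10690 and 12730 CPM at 8 h. CD68, a macrophage marker also found in other cells, had 575 to 654 counts and rose (log2FC 0.39, edgeR adjusted p = 0.00298), a call lost without replicate 1 of 4 h (adjusted p = 0.0583). The 6 blood and endothelial markers summed to 55.1 and 57.0 CPM at 4 h, against 71.3 and 76.1 CPM at 8 h, with CD3E and HBB at 0. PECAM1 had 1 to 3 counts and VWF 2 to 5, so CD68 made up nearly all of these sums. It was the only gene of that list tested. The part of these markers in the results below was not tested.

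Between 4 h and 8 h the EGR genes that could be tested fell and the NAB genes rose. In bulk RNA a change in the share of cells that express a gene and a change in RNA per cell cannot be told apart. Of the 8 genes tested, 4 were lower (EGR1, EGR2, EGR3 and IER5) and 2 were higher (NAB1 and NAB2) at an adjusted p below 0.05, and IER2 and IER3 did not pass. Over all 12559 genes tested, 18.8% were lower and 19.9% higher by the same rule. With an absolute log2 fold change (log2FC) above 1 in addition, which defines a differentially expressed gene (DEG), EGR1, EGR2 and EGR3 were lower and NAB2 was higher, against a background of 3.88% lower and 1.45% higher. These percentages depend on the scaling. TMM gave 182 DEGs higher and 487 lower, and library size alone gave 125 and 641 and moved the median log2FC of all genes to −0.11. The libraries of the 2 times did not overlap for 7 of the 8 genes, and over all genes 34.9% lay apart with 8 h lower and 34.8% with 8 h higher.

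**Figure D1:**
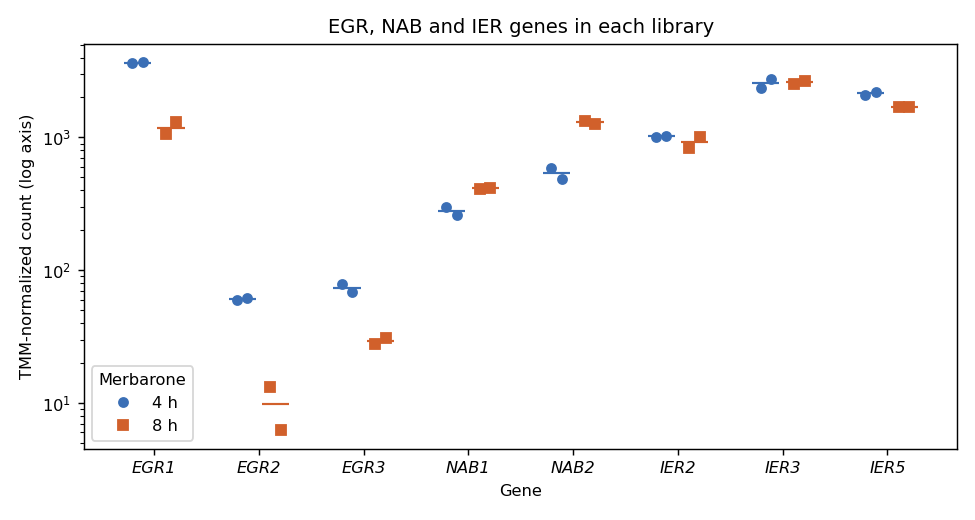
TMM-normalized count (log axis) of the 8 tested genes in each of the 4 libraries, with circles for 4 h, squares for 8 h and a bar at the mean of the 2 replicates. The squares of EGR1, EGR2 and EGR3 lie well below their circles, those of NAB1 and NAB2 lie above, and IER3 overlaps.

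EGR1 (chromosome 5, 137801168 to 137804992, plus strand, hg19, 2 exons) encodes the founding member of the family, a zinc finger activator induced by serum, stress and DNA damage. It had 4050 and 4054 counts in the 4 h replicates and 1042 and 1044 in the 8 h replicates. After TMM normalization, which rescales each count to a common effective library size, this was 3634 and 3675 at 4 h, against 1066 and 1297 at 8 h. Both 8 h libraries lay far below both 4 h libraries. The mean went from 3655 ± 28.8 to 1181 ± 164 (SD, n = 2 each), a fall of 3.10-fold. The log2FC was −1.63 (standard error, SE, 0.09, edgeR adjusted p = 2.58e-10). Over all genes tested, 91 fell further. Among the 2091 genes whose normalized counts averaged 1000 or more, a level chosen after the values were seen, EGR1 had the largest fall in the edgeR fit.

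EGR2 (chromosome 10, 64571756 to 64578927, minus strand, 2 exons), known for its role in myelination and in lymphocytes, was a low-level gene. Its counts were 66 and 68 at 4 h, against 13 and 5 at 8 h. The exact 95% Poisson intervals of the 8 h counts, 6.92 to 22.2 and 1.62 to 11.7, cover counting error only and lie below those of the 4 h counts, 51.0 to 84.0 and 52.8 to 86.2. Its normalized count went from 60.4 ± 1.71 to 9.75 ± 5.01 (SD, n = 2 each), with a log2FC of −2.57 (SE 0.35, edgeR adjusted p = 1.19e-05). Only 10 of the 12559 genes tested fell further. Without replicate 1 of 8 h the log2FC was −3.26, and without replicate 2 of 8 h it was −2.18. EGR2 passed the CPM filter in the 4 h libraries and in 1 library of 8 h.

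EGR3 (chromosome 8, 22545172 to 22550993, minus strand, 2 exons), a paralog known from neurons and lymphocytes, had 87 and 75 counts at 4 h, against 27 and 25 at 8 h. The normalized count was 73.0 ± 7.13 at 4 h, against 29.3 ± 2.44 at 8 h (SD, n = 2 each). The libraries of the times did not overlap, and the log2FC was −1.32 (SE 0.26, edgeR adjusted p = 0.000445). EGR4 (chromosome 2, 73518057 to 73520829, minus strand), mainly known from neurons, had 0 and 2 counts at 4 h, against 0 and 1 at 8 h. A count of 0 allows up to 3 counts, or 0.291 CPM in replicate 1 of 4 h and 0.31 CPM in replicate 1 of 8 h, so a difference in EGR4 was not detectable at this depth.

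EGR1 supplied nearly all reads of the family at both times. Its share of the EGR counts was 96.4% (95% Wilson interval 95.8 to 96.9) and 96.6% (96.0 to 97.1) in the 4 h replicates. It was 96.3% (95.01 to 97.27) and 97.1% (95.9 to 98.0) in the 8 h replicates. These intervals cover counting error only. A share this close to its upper limit says little of EGR2 and EGR3, whose own changes are given above. The family's summed normalized count went from 3772 and 3807 to 1107 and 1336.

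Promoter sequences were read from the RefSeq table on GRCh38.p14, which covers 250 bases before to 50 after each start site and matched 7 of the 9 genes. EGR3 and IER3 had no entry. CArG boxes, the sites of SRF, were found in the promoters of EGR1 and EGR2 and in no other promoter of the 7 genes. Of the 35116 promoters of the same length, 1.29% hold a CArG box. The stretches around them are shown as a description, and the part of these boxes in the fall of EGR1 and EGR2 was not tested. Capitals mark the CArG boxes, 2 at EGR1 (chr5:138465354-138465425, plus strand, positions −125 to −54 from the start site) and 1 at EGR2 (chr10:62816408-62816457, minus strand, −91 to −42), written 5′ to 3′ on the gene's strand.
EGR1: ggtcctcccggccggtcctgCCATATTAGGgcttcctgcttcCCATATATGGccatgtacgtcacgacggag
EGR2: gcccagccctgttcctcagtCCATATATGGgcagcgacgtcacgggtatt
The box of EGR2 has the same letters as the box of EGR1 nearer to the start site. The EGR2 match lies in 1 of the 3 promoters listed for that gene. A match describes these letters and says nothing of occupancy by SRF in these cells.

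NAB2 (chromosome 12, 57482826 to 57489259, plus strand, hg19, 7 exons), the inducible corepressor of EGR1, moved the opposite way. It had 654 and 538 counts at 4 h, against 1303 and 1021 at 8 h. The normalized counts were 587 and 488 at 4 h, against 1333 and 1269 at 8 h, so both 8 h libraries were clearly higher. The mean went from 537 ± 70.1 to 1301 ± 45.3 (SD, n = 2 each), a rise of 2.42-fold with a log2FC of 1.28 (SE 0.10, edgeR adjusted p = 8.68e-09). Of all genes tested, 93 rose further. In the test of whether a change exceeds a log2FC of 1, the adjusted p of NAB2 was 0.113 (edgeR glmTreat). The exons of NAB2 share 69 bases with STAT6 on the opposite strand, and whether strand was used in counting is not given in the sources used here. STAT6 went the other way, from 1466 ± 21.99 to 1166 ± 20.1 normalized counts (SD, n = 2 each).

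NAB1 (chromosome 2, 191511472 to 191557492, plus strand, 10 exons), the more constant paralog of NAB2, rose less. Its counts were 335 and 288 at 4 h, against 402 and 336 at 8 h. After normalization these became 301 and 261 at 4 h, against 411 and 417 at 8 h, without overlap. The mean went from 281 ± 27.96 to 414 ± 4.49 (SD, n = 2 each), with a log2FC of 0.56 (SE 0.12, edgeR adjusted p = 0.000839), which is 1.47-fold and below the threshold for a DEG. The ratio of NAB2 to NAB1 counts was 1.95 and 1.87 in the 4 h replicates and 3.24 and 3.04 in the 8 h replicates.

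The EGR site GCGNGGGCG, searched on both strands, was found in promoters of NAB1, NAB2, EGR1 and EGR2, and 9.43% of all promoters hold it. That share is per promoter, and NAB1 and EGR2 have 3 promoters listed each. The stretches at NAB2 (chr12:57089032-57089080, plus strand, −82 to −34) and NAB1 (chr2:190648833-190648887, plus strand, −62 to −8) are shown because EGR1 is known to induce NAB2, the paralog of NAB1. The part of these sites in the rise of NAB1 and NAB2 was not tested. Capitals mark the sites, which at NAB1 are a pair that overlap, read on the minus strand.
NAB2: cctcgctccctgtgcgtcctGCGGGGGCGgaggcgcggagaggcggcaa
NAB1: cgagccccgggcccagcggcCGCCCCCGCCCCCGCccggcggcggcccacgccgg
The promoters listed for NAB1 hold 4 distinct sites in all, and NAB2, EGR1 and EGR2 hold 1 each. For EGR1 that site is the letters GCGCGGGCG at −198. The letters CCGGAA, searched on both strands as 1 form of the ETS site, were found at IER2 and IER5. Of all promoters, 17.2% hold them. The NF-kB site was found at EGR4 and NAB1, against 5.91% of all promoters. The letters TGACGTCA, searched as the full CREB site (1.85%), and the TATA letters TATAAA (7.33%, plus strand only) were found at none of the 7 genes. Only full matches were counted, and shorter or variant forms of the ETS, CREB and other sites were not searched.

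**Figure D2:**
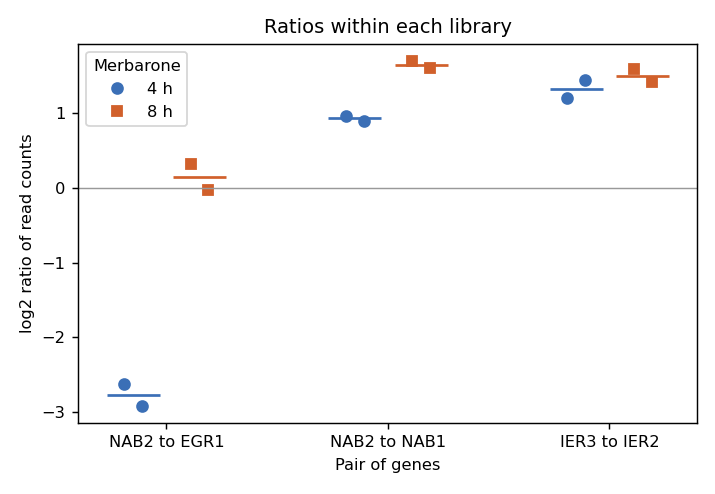
Log2 ratio of read counts within each library for 3 pairs of genes, with circles for 4 h, squares for 8 h and a bar at the mean. The ratio of NAB2 to EGR1 lies near −2.77 at 4 h and near 0.15 at 8 h, and the ratio of IER3 to IER2 overlaps between the times.

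A ratio of 2 genes within a library is free of library size and TMM. There were 0.162 and 0.133 NAB2 reads for each EGR1 read in the 4 h replicates, and 1.25 and 0.978 in the 8 h replicates. The mean log2 ratio went from −2.77 ± 0.20 to 0.15 ± 0.25 (SD, n = 2 each), a change of 2.92, or 7.55-fold. Leaving out each library in turn gave changes between 2.74 and 3.10. An exact permutation test of 2 libraries against 2 cannot reach the threshold of 0.05, since its smallest two-sided p is 1/3, so the ratios are described without a test. The ratio of IER3 to IER2, by contrast, was 2.30 and 2.72 at 4 h, against 3.03 and 2.66 at 8 h. Its change of 0.18 in log2 was close to the SD of 0.17 between the 4 h replicates.

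IER5 (chromosome 1, 181057836 to 181062036, plus strand, hg19, 1 exon) was the IER gene that changed. It had 2344 and 2416 counts at 4 h, against 1658 and 1363 at 8 h. The normalized counts were 2104 and 2190 at 4 h, against 1696 and 1694 at 8 h, and both 8 h libraries were lower. The mean went from 2147 ± 61.3 to 1695 ± 1.52 (SD, n = 2 each), with a log2FC of −0.34 (SE 0.08, edgeR adjusted p = 0.00153), which is 1.27-fold.

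IER2 (chromosome 19, 13261225 to 13265725, plus strand, 2 exons), a nuclear protein gene induced by serum, had 1131 and 1123 counts at 4 h, against 816 and 807 at 8 h. Normalized counts were 1015 and 1018 at 4 h, against 835 and 1003 at 8 h. Replicate 2 of 8 h lay just below the 4 h libraries and replicate 1 further down. The log2FC of −0.15 (95% interval −0.34 to 0.05, edgeR adjusted p = 0.216) did not pass. It did pass without replicate 2 of 8 h, at −0.28 (edgeR adjusted p = 0.0182), with library size alone, at −0.26 (edgeR adjusted p = 0.0323), and after correction for the trend with abundance, at −0.25 (edgeR adjusted p = 0.0422).

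IER3 (chromosome 6, 30710976 to 30712325, minus strand, 2 exons), also known as IEX-1, had 2604 and 3050 counts at 4 h, against 2470 and 2148 at 8 h. Normalized counts were 2337 and 2765 at 4 h, against 2526 and 2669 at 8 h, and the times overlapped. The log2FC was 0.03 (95% interval −0.15 to 0.20, edgeR adjusted p = 0.834), and its sign depended on the scaling. IER3 shares 440 bases of exon with the antisense gene IER3-AS1, and IER2 shares 946 bases with an antisense long non-coding RNA gene. NAB1 shares 589 bases and EGR3 shares 164 bases with antisense long non-coding RNA genes. EGR2 shares 145 bases with a long non-coding RNA gene on its own strand. None of these overlapping genes is listed with its own counts. Reads of the 2 strands cannot be told apart at the antisense overlaps if strand was not used.

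**Figure D3:**
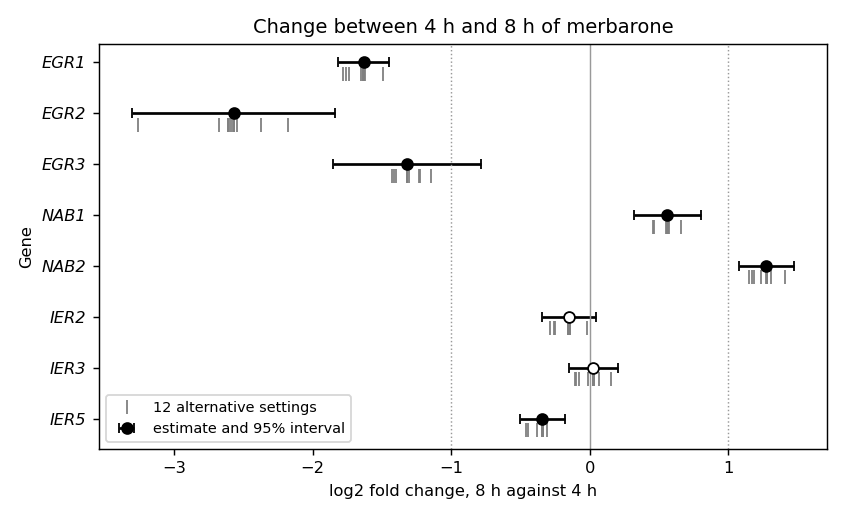
Log2 fold change of 8 h against 4 h for each tested gene, with its 95% interval (edgeR), filled points where the adjusted p is below 0.05 and grey ticks for the 12 alternative settings. EGR1, EGR2 and EGR3 lie left of −1, NAB2 lies right of 1, and the ticks of IER3 fall on both sides of 0.

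Levels of different genes were compared per kilobase of the canonical transcript, as CPM on the TMM-scaled library size divided by the length in kilobases. At 4 h the order was IER3 at 215 ± 25.5, EGR1 at 122 ± 0.958, IER5 at 53.3 ± 1.52, IER2 at 50.2 ± 0.109, NAB2 at 22.5 ± 2.94, NAB1 at 6.499 ± 0.647, EGR2 at 2.12 ± 0.0599, EGR3 at 1.69 ± 0.165 and EGR4 at 0.0426 ± 0.0602 (SD, n = 2 each). The libraries of no neighbours in this order overlapped. At 8 h IER3 was still the highest, at 219 ± 8.51. NAB2 was second, at 54.5 ± 1.90, followed by IER2 at 45.4 ± 5.88, IER5 at 42.1 ± 0.0377 and EGR1 at 39.3 ± 5.44. Among these, IER2, IER5 and EGR1 overlapped in their libraries. NAB1 stood at 9.59 ± 0.104, EGR3 at 0.678 ± 0.0564, EGR2 at 0.342 ± 0.175 and EGR4 at 0.0292 ± 0.0413, with EGR3 and EGR2 apart. EGR1 therefore lay above NAB2 in both libraries of 4 h and below it in both libraries of 8 h. When length was the union of all exons, IER2 went below EGR1 at 8 h, at 31.1, and NAB2 remained second, at 47.4.

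In gene structure the EGR and IER genes had 1 or 2 exons in the canonical transcript. The median was 9 over the 12294 tested genes that have a canonical transcript in the annotation. NAB1 had 10 and NAB2 had 7. Bowtie 1 aligns reads without gaps, and what that does to the levels of genes with many splice junctions was not tested.

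**Figure D4:**
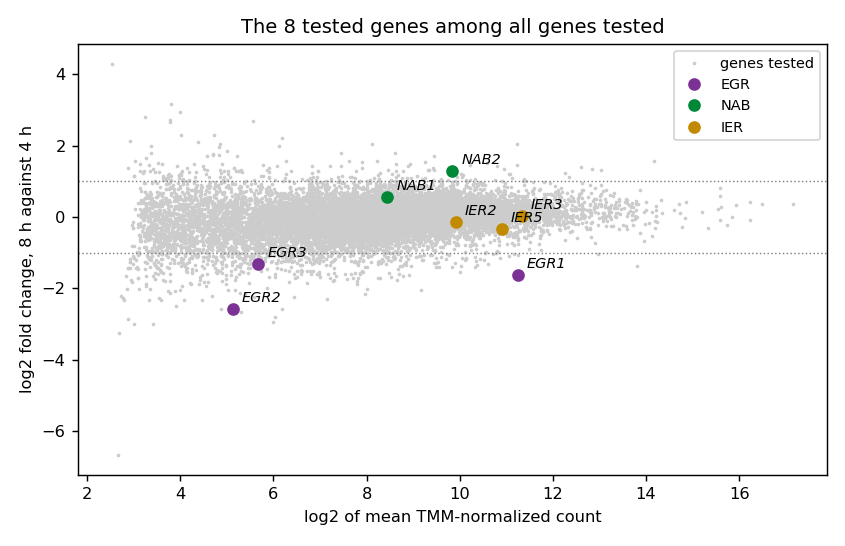
Log2 fold change of 8 h against 4 h by the log2 of the mean normalized count, for all 12559 genes tested (grey) and for the 8 tested EGR, NAB and IER genes (coloured). EGR1 stands below every grey point with a mean of 1000 or more, and the dotted lines mark log2 fold changes of −1 and 1.

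The genes that carry growth signals to the EGR promoters went both ways. Of 22 genes of the ERK cascade and its factors, such as ELK1, SRF and CREB1, 8 were higher, 4 lower and 10 did not pass, with no DEG and a median log2FC of 0.19, beside −0.0024 for all genes tested. For this list and those that follow, the shares over all genes tested were 19.9% higher and 18.8% lower. Without replicate 1 of 4 h, 6 passed in place of 12. ELK1, an ETS factor on CArG promoters, had a normalized count of 524 ± 24.2 at 4 h and 761 ± 6.60 at 8 h (SD, n = 2 each; log2FC 0.54, edgeR adjusted p = 0.000157). MAP2K2, which encodes the ERK kinase MEK2, had a log2FC of 0.49 (edgeR adjusted p = 0.000713). RPS6KA1, a kinase downstream of ERK, fell with a log2FC of −0.64 (edgeR adjusted p = 0.00629), a call lost without replicate 1 of 4 h (adjusted p = 0.0708).

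NAB2 represses in part through the NuRD complex, by binding its helicase CHD4. Of 13 NuRD genes, 5 were higher and 5 lower, with no DEG and a median log2FC of 0.12. DESeq2 and the fit without replicate 1 of 4 h each gave 5 in place of 10, and the fit without replicate 2 of 4 h gave 4. CHD4 fell from 1923 ± 24.5 to 1479 ± 58.6 (SD, n = 2 each; log2FC −0.38, edgeR adjusted p = 0.000769). RBBP4, a histone-binding subunit, fell with a log2FC of −0.66 (edgeR adjusted p = 9.07e-05). GATAD2B and MBD3, further subunits, rose with log2FC values of 0.77 and 0.35 (edgeR adjusted p = 1.62e-05 and 0.00469). MBD3 did not pass without replicate 1 of 4 h (log2FC 0.32, adjusted p = 0.0736) or without replicate 2 of 8 h (log2FC 0.19, adjusted p = 0.0793).

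Known targets of EGR1 went both ways. Of 23 genes, 21 were tested, 11 were higher and 7 lower, beside 19.9% and 18.8% of all genes tested, with a median log2FC of 0.21. With DESeq2, 12 passed in place of 18. PDGFB, a growth factor gene, was the 1 DEG of the list. It had 66 and 75 counts at 4 h, against 17 and 9 at 8 h, without overlap, and a log2FC of −2.12 (SE 0.31, edgeR adjusted p = 3.08e-05). GADD45B, a stress gene, fell from 4455 ± 396 to 2360 ± 74.7 (SD, n = 2 each; log2FC −0.92, edgeR adjusted p = 4.53e-08). CDKN1A, the gene of the cell cycle inhibitor p21 and also a p53 target, rose from 35424 ± 1989 to 62439 ± 1597 (SD, n = 2 each; log2FC 0.82, edgeR adjusted p = 1.21e-08). PTGES, which makes prostaglandin E2, had 17 and 34 counts at 4 h, against 45 and 37 at 8 h (log2FC 1.00, edgeR adjusted p = 0.0200), and without replicate 1 of 4 h the adjusted p was 0.275. These genes have other regulators as well, and the part of EGR1 in their levels was not tested.

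Among partners of the IER proteins no DEG was found. Of 16 genes for PP2A subunits, HSF1, CDC25B and MCL1, 15 were tested, 5 were higher and 3 lower, with a median log2FC of 0.082. Without replicate 1 or replicate 2 of 4 h, or replicate 1 of 8 h, 4, 3 and 5 passed in place of 8, and with DESeq2 4 passed. HSF1, which binds IER5 protein, had a log2FC of 0.42 (edgeR adjusted p = 0.00337), and without replicate 2 of 8 h it was 0.24 (adjusted p = 0.0628). PPP2R2A, a B55 subunit of PP2A, had a log2FC of 0.45 (edgeR adjusted p = 0.00110). PPP2R5B, a B56 subunit, had a log2FC of 0.35 (edgeR adjusted p = 0.0196), and did not pass without replicate 1 or 2 of 4 h or replicate 1 of 8 h (adjusted p = 0.0578, 0.167 and 0.0627). CDC25B, a cell cycle phosphatase gene, fell with a log2FC of −0.43 (edgeR adjusted p = 0.000854).

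Of 32 other immediate-early genes, all tested, 14 were higher and 9 lower, beside 19.9% and 18.8% of all genes tested, and the median log2FC was 0.23. The 8 DEGs among them were all higher, where 1.45% of all genes tested were DEGs higher and 3.88% were DEGs lower. NR4A2, a nuclear receptor gene, had 116 and 120 counts at 4 h, against 410 and 379 at 8 h (log2FC 2.06, edgeR adjusted p = 2.06e-09). NR4A1 rose from 362 ± 47.2 to 907 ± 37.2 and the kinase gene SIK1 from 3402 ± 324 to 9036 ± 1112 (SD, n = 2 each; log2FC 1.32 and 1.41, edgeR adjusted p = 1.42e-08 and 9.98e-10). NR4A3 had 24 and 33 counts at 4 h, against 89 and 120 at 8 h (log2FC 2.20, edgeR adjusted p = 4.91e-06). The difference in direction between these genes and the EGR genes was not tested.

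**Figure D5:**
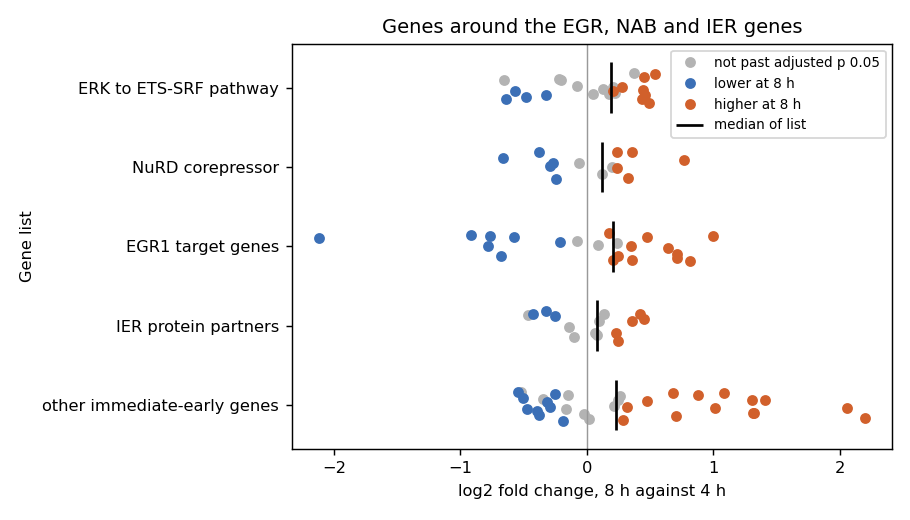
Log2 fold change of 8 h against 4 h for each tested gene of 5 lists, coloured by direction where the adjusted p is below 0.05, with a black bar at the median of the list. Points lie on both sides of 0 in every list, and the points above 1 that passed the test are all in the list of other immediate-early genes.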

How the data were processed

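Reads were aligned by the authors with Bowtie 1.2.0 against hg19. They kept reads with 1 genomic position and deposited raw counts per NCBI Gene identifier for each library. The counting tool, the annotation and the use of strand are not given in the sources used here. Of the 23459 genes, 23308 had a RefSeq symbol (GRCh38.p14, names only), and positions came from GENCODE on GRCh37, the assembly of hg19.

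The filter asked for more than 1 CPM in 2 or more libraries and left 12559 genes, whose counts were scaled by TMM. A TMM-normalized count is the count divided by the effective library size and multiplied by the mean effective size. All 4 libraries entered 1 edgeR fit (version 4.0.16, R 4.3.3), tested by quasi-likelihood with Benjamini-Hochberg adjustment over all genes tested. The standard error is the log2FC divided by the square root of F. The biological coefficient of variation was 6.52%. Scripts were tested on simulated data. Alternatives were Limma-Voom (limma 3.58.1), DESeq2 1.42.0, other scalings and filters, glmTreat, a replicate block, each library left out and, added after seeing the data, a loess correction for the trend with abundance.

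The members and lists were chosen with earlier results of these data known. All 9 genes are named and, per list, up to 4 genes with the largest change among those past an adjusted p of 0.05. A gene that this rule names is not reported here. For likeness, the 9373 genes whose normalized counts averaged 100 or more were compared by the root mean square difference of their centred log2-CPM. A small constant was added to each CPM before the logarithm was taken.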

Additional observations from a re-analysis of the deposited data

How the results depend on the processing

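EGR1, EGR2, EGR3, NAB1, NAB2 and IER5 kept their direction and an adjusted p below 0.05 under all 12 alternatives in test, scaling, filter, block, trend correction or left-out library. Their log2FC ran from −1.78 to −1.49 for EGR1, from −3.26 to −2.18 for EGR2, from −1.42 to −1.14 for EGR3, from 0.45 to 0.66 for NAB1, from 1.15 to 1.41 for NAB2 and from −0.46 to −0.31 for IER5. IER2 passed under 3 of the 12. IER3 turned negative with library size alone (−0.081) and with the trend correction (−0.11), and ran from −0.10 to 0.15 with 1 library left out. No setting called it. With glmTreat, which asks whether a change exceeds a log2FC of 1, 84 genes were called in place of 669, and 2 of the 9 genes, EGR1 and EGR2. The trend correction gave 260 DEGs higher and 344 lower. With the replicate block there were 691 DEGs, 4 of them among the 9 genes, and EGR1 had a log2FC of −1.64. Same-numbered libraries deviated from their time's mean with a correlation of 0.055 over all genes and 0.115 over genes with a mean count of at least 100. With 2 pairs and no label that ties them, they were taken to share only a number. In the fits without 1 library, the lone library of a time is assumed to vary like the pair. Depth limits EGR4, and EGR2 at 8 h.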

Other observations

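Relatives of the IER and EGR genes were few. IER5L, a paralog of IER5, had 149 and 154 counts at 4 h and 203 and 305 at 8 h. Its log2FC was 1.09 (standard error 0.20, edgeR adjusted p = 0.000317), where IER5 fell. The rise rested in part on replicate 2 of 8 h, without which it was 0.60 (edgeR adjusted p = 0.00505), below the threshold for a DEG. IER3IP1, named for its binding to IER3 protein, had a log2FC of −0.07 (edgeR adjusted p = 0.733). WT1, whose zinc fingers resemble those of the EGR proteins, had no count in any library.

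The genes most like the leading member of each family were found over the 4 libraries. The 3 genes nearest to EGR2 were NDC80 at a root mean square difference of 0.0529, KIF20A at 0.213 and WDR76 at 0.237. Their log2FC values were −2.31, −2.04 and −1.89, against −2.57 for EGR2, which had only 13 and 5 counts at 8 h. The constant added to each CPM shrinks the change of a gene this low, so its neighbours depend in part on that constant. For EGR1, added after its values were seen, the nearest genes were NCAPG at 0.0412, AURKA at 0.0824 and NCAPH at 0.0864. For EGR3, added likewise, the nearest genes were SFPQ at 0.0375, NEK2 at 0.0413 and KNTC1 at 0.0437. NAB2 was nearest to CREBRF, HK2 and RIC1, at 0.0447, 0.0535 and 0.0563. IER5 was nearest to SEMA7A, ATXN7L3B and SMPD4, at 0.00532, 0.00551 and 0.00584. These differences rest on 4 libraries in 2 groups, so genes with a similar change between the times are close by construction.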
